A study of Homo sapiens with 8 samples.

Results

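The chemokines CXCL9, CXCL10 and CXCL11, the tryptophan-degrading enzyme IDO1, the immune checkpoint ligands CD274 (PD-L1) and PDCD1LG2 (PD-L2) and the adhesion molecule ICAM1 were followed in the open chromatin of U2OS cells. These 7 genes, of 19962 protein-coding genes annotated, form a list of interferon-inducible immune genes set by name, with no threshold on measured values. It was chosen with earlier results of these data known. For each gene, peaks in the gene body or within 10 kb of it (GENCODE release 44, GRCh38) were collected, which gave 13 regions of 52105 in the whole series. A peak within 500 bp of any annotated transcription start site (TSS) of its gene was counted as a promoter peak, and all others as distal.

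FAIRE-seq recovers DNA that stays free of protein after formaldehyde crosslinking, so that a peak marks open chromatin. U2OS is a human osteosarcoma cell line. Of the 8 libraries, 4 came from untreated clones, namely WT replicates 1 and 2 (clones WT_4 and WT_5) and KO replicates 1 and 2 (KO_C5 and KO_D2), the latter carrying a knockout of the zinc finger protein ZBTB48. The other 4 came from the same clones after addition of 250 U/ml interferon gamma (IFNγ), and are named WT_IFNγ and KO_IFNγ. The labels give 24 hours of IFNγ, whereas a longer time is stated in the study for its FAIRE-seq, which leaves the duration uncertain. Each clone gave 1 library per treatment, so that genotype was compared over 2 clones against 2.

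IFNγ signals through its cell surface receptor to genes that hold gamma-activated sites (GAS) or interferon-stimulated response elements (ISRE), the latter bound by the factor IRF1. CXCL9, CXCL10 and CXCL11 attract T cells that carry CXCR3, IDO1 depletes tryptophan, CD274 and PDCD1LG2 bind the inhibitory receptor PD-1, and ICAM1 binds the leukocyte integrin LFA-1. The 3 chemokine genes lie side by side on chromosome 4, and CD274 and PDCD1LG2 are neighbours on chromosome 9. Open chromatin at a promoter is not the same as transcription, and RNA was not analysed here.

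The sequences under the regions that the results turn on are shown first, from the GRCh38 reference and 5′ to 3′. The first is the part of the CD274 promoter region before the first annotated TSS (chr9:5450245-5450502, plus strand), shown because it was the only promoter of the 7 genes with a peak in every list. Capitals mark matches to the ISRE core GAAANNGAAA and to the GAS letters TTCNNNGAA, searched on both strands.
CD274 promoter: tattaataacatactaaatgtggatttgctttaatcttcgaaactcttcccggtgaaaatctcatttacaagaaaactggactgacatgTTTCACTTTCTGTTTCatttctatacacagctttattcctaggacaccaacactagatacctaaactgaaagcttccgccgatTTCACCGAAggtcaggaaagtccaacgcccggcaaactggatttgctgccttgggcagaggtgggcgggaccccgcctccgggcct
The capitals in the first run are 2 overlapping ISRE cores on the opposite strand, which begin at -169 and -163 from the TSS. The second run in capitals is a GAS match that begins at -86 and fits the letters on both strands. In windows of 258 bp centred on the strongest summit of each region, 3.49% of all 52105 regions held an ISRE core. A GAS match was held by 5.94%. The printed stretch ends before the TSS instead, so the shares are not of like windows. Centred on its own strongest summit, such a window at CD274 holds the GAS match and leaves out the 2 ISRE cores.

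The second is the CXCL10 promoter region (chr4:76023511-76023723, minus strand, as the gene is read), shown because it held an IFNγ peak in 1 list. Capitals mark an ISRE core, 2 matches to the NF-kB consensus and the hexamer TTAGGG, the telomere repeat unit that ZBTB48 binds.
CXCL10 promoter: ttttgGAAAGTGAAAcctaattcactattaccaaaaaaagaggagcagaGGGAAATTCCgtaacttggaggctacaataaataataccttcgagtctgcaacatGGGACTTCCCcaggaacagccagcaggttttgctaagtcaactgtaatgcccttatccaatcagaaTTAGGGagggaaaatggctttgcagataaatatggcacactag
The ISRE core begins at -221 from the TSS, the NF-kB matches at -177 and -122 and the hexamer at -56. In windows of 213 bp centred in the same way, 2.85% of all regions held an ISRE core, 4.52% an NF-kB match and 4.35% the hexamer. The printed sequence is the whole peak, and its ISRE core lies outside a window of that length centred on its summit. The last 2 sequences are distal regions with a peak in more than 1 list, and serve as a contrast.
ICAM1 upstream region: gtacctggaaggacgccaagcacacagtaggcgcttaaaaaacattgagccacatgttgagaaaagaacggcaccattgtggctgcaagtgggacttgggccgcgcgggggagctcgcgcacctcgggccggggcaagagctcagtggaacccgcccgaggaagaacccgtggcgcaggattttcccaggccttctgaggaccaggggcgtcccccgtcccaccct
PDCD1LG2 upstream region: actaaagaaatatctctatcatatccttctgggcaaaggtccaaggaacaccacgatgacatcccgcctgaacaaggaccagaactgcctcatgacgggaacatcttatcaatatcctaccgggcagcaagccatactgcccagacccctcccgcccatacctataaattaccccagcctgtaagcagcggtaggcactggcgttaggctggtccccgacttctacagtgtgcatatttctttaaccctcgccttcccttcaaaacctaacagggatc
The first is the stretch upstream of ICAM1 that the peak of every list covered (chr19:10269511-10269736), and the second lies upstream of PDCD1LG2 (chr9:5500776-5501053), both on the plus strand. Neither held a match to the ISRE core, the GAS letters, the NF-kB consensus, the hexamer, the AP-1 letters TGANTCA or the CTCF core CCNNNAGGNGGC on either strand. In windows of 278 bp centred on summits, 3.79% of all regions held an ISRE core and 6.39% a GAS match. The printed sequences were not placed in that way. A match is a description of letters only, and its absence says nothing on binding.

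In the RefSeq promoter table, which covers 250 bases before to 50 after each gene start, 5 of the 7 genes were matched. CXCL9, CXCL10 and CD274 held an ISRE core there, and CXCL11, CD274 and ICAM1 a GAS match. An ISRE core was found in 3.57% of all promoters of that table and a GAS match in 7.66%. CXCL9 therefore held the ISRE letters in its promoter window without a promoter peak in any list.

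The lists held 16730 to 37533 peaks on chromosomes 1 to 22 and X, and a peak needed a summit of at least 5 or 6 fragments, depending on the library. With IFNγ the list became longer in clones WT_5, KO_C5 and KO_D2 and shorter in WT_4, from 21715 to 18913 peaks. Values are therefore given as a percentile, the share of peaks of the same list with a −log10 p as low or lower, beside the fold enrichment over local background. A percentile is relative to the other peaks of its list. Among the 11551 regions with a peak in all 8 lists the median change with IFNγ was 2.48 percentile points. Of 6 genes that mark the mesenchymal lineage of U2OS, 5 had a promoter peak in at least 1 list. Among all 19962 protein-coding genes 14424 had one, so the count does not set these markers apart. COL1A2, a type I collagen chain, had none, and TWIST1 had one in WT replicate 1 only, at a percentile of 6.93. The leukocyte genes PTPRC, CD3E, CD14 and ITGAM had no promoter peak in any list, which held for 27.7% of all protein-coding genes. The ZBTB48 promoter had a peak in all 8 lists, which says nothing on the knockout.

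Of the 13 regions, 4 were promoter regions and 9 were distal. Across the 8 libraries, 7 regions had peaks in IFNγ lists only, 3 in untreated lists only, and 9 in a single list. In the whole series, 28.7% of regions had peaks in IFNγ lists only, 16.4% in untreated lists only and 38.9% in a single list. The heat map of the 13 regions shows that 2 regions, the CD274 promoter and the region upstream of ICAM1, were filled in every library.

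**Figure D1:**
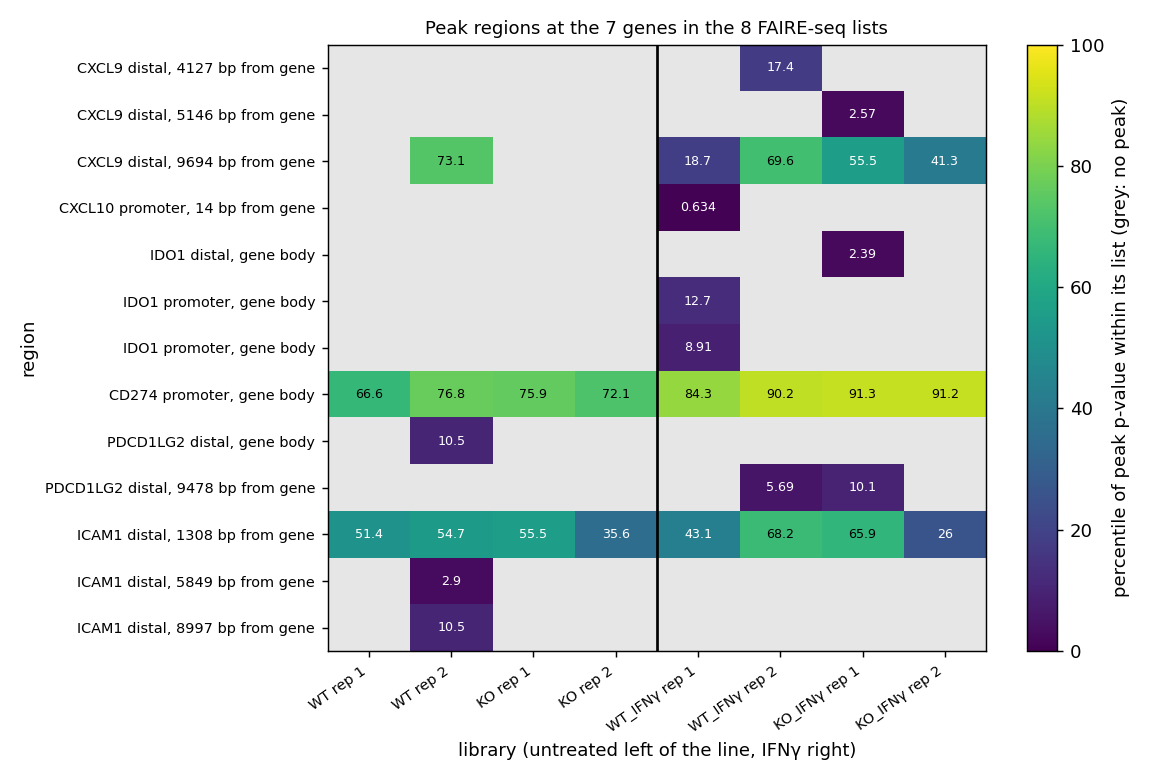
Within-list percentile of −log10 p (colour and number, 0 to 100) for each of the 13 regions at the 7 genes (rows) in each library (columns), with grey where the list had no peak. The CD274 promoter lies at 66.6 to 76.8 in the untreated and 84.3 to 91.3 in the IFNγ libraries, while most other regions are filled in 1 library.

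Promoter peaks were found at CXCL10, IDO1 and CD274, and at none of CXCL9, CXCL11, PDCD1LG2 and ICAM1 in any list. Among all protein-coding genes, 27.7% had a promoter peak in no list and 51.2% had one in all 8 lists, as CD274 did. CXCL10 and IDO1 had a promoter peak in more IFNγ than untreated libraries, which held for 11.7% of all genes. The number of the 7 genes with a promoter peak was 1 in each untreated library, 3 in WT_IFNγ replicate 1 and 1 in each of the other IFNγ libraries. The mean was 1.5 ± 1 in the IFNγ libraries and 1 ± 0 in the untreated libraries (SD, n = 4 each), a difference of 0.5 that WT_IFNγ replicate 1 alone gave, since without it the difference was 0.

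The CD274 promoter, which drives the PD-1 ligand PD-L1, had a stronger peak in every IFNγ library than in any untreated library. The region spanned chr9:5450245-5450740 and covered the first TSS and the first exon with its untranslated part. Its percentile was 66.6 and 76.8 in the WT libraries, 75.9 and 72.1 in the KO libraries, 84.3 and 90.2 in the WT_IFNγ libraries and 91.3 and 91.2 in the KO_IFNγ libraries. The 2 treatments did not overlap, and WT_IFNγ replicate 1 was the lowest of the IFNγ libraries. The mean was 72.9 ± 4.64 without and 89.3 ± 3.33 with IFNγ (SD, n = 4 each), a difference of 16.4 points with a two-sided exact permutation p of 0.0286, the smallest that 4 libraries against 4 can give. Over the 11551 regions with a peak in all 8 lists the Benjamini-Hochberg adjusted p was 1, so the difference did not pass the test across all regions, and 0 regions did. At an unadjusted p under 0.05 there were 124 such regions, and 0.996% of the 11551 had a higher percentile in every IFNγ than in every untreated library. A larger difference in percentile was found at 6.61% of these regions, and among genes with a promoter peak in all 8 lists CD274 ranked 620 of 10214. The promoter of the mesenchymal marker VIM differed by 15.2 points (exact permutation p = 0.0571), and the part of such shifts in the CD274 value was not tested. With the clone as a replicate block the difference of 16.4 had an exact p of 0.125, the smallest that 4 clones allow.

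The fold enrichment of the CD274 peak was 26.9 and 23.5 in the WT libraries, 34.3 and 28.4 in the KO libraries, 35.1 and 52.4 in the WT_IFNγ libraries and 64.0 and 45.4 in the KO_IFNγ libraries. The lowest IFNγ value was just above the highest untreated one, and they came from different clones. The mean fold was 28.3 ± 4.5 without and 49.2 ± 12.1 with IFNγ (SD, n = 4 each), a ratio of 1.74 (exact permutation p = 0.0286). Of all regions in the 8 lists, 0.312% had a higher fold in every IFNγ than in every untreated library. Within clones the fold was 1.30 times the untreated value in WT_4, 2.23 times in WT_5, 1.87 times in KO_C5 and 1.60 times in KO_D2.

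The number of fragments at the summit, solved from fold and −log10 p, was 57, 64, 63 and 49 in the untreated and 74, 121, 121 and 105 in the IFNγ libraries, in the order WT replicates 1 and 2, KO replicates 1 and 2. Divided by the lowest local background of the library, it was 78.8 ± 11.7 without and 127 ± 25.1 with IFNγ (SD, n = 4 each), a ratio of 1.61 (exact permutation p = 0.0286). This measure was higher in every IFNγ library at 0.581% of the 9116 regions where it could be solved. The local background around the CD274 peak did not differ beyond its spread (exact permutation p = 0.886).

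Because list length moves a percentile, the CD274 promoter was also ranked among the 11551 regions found in all 8 lists. Its rank was 38.0 and 43.9 in the WT, 60.2 and 59.9 in the KO, 74.4 and 68.8 in the WT_IFNγ and 79.4 and 81.3 in the KO_IFNγ libraries, on a scale of 0 to 100. The difference with IFNγ was 25.4 points (exact permutation p = 0.0286, adjusted p = 0.909), against a median of -1.34 over all these regions, and 1.80% of them had a larger one. A share of 1.01% had a higher rank in every IFNγ library. The rank in clone WT_4, whose IFNγ list was the shorter one, was higher by 36.4 points with IFNγ, against 19.2 to 24.8 points in the other clones.

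**Figure D2:**
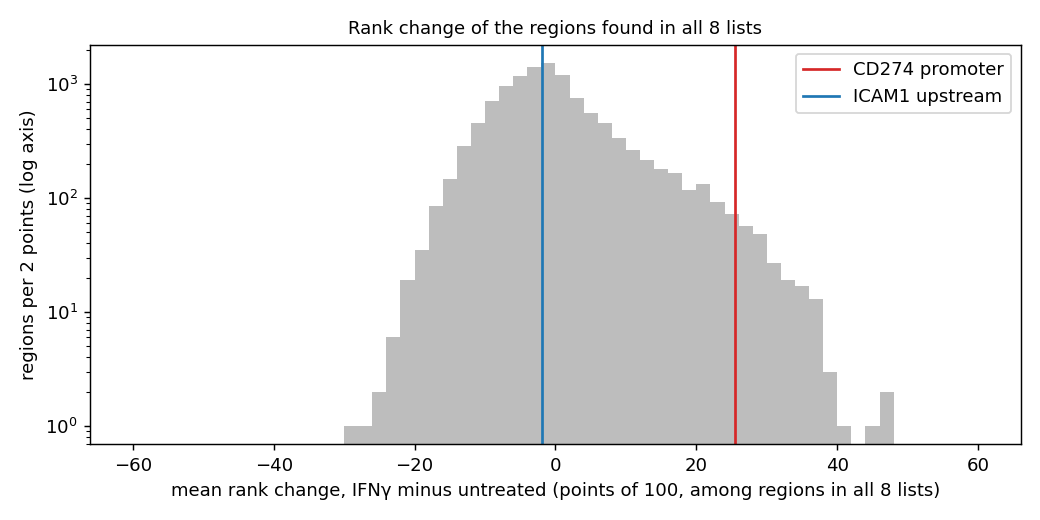
Number of regions (log axis, bins of 2 points) by mean rank change, IFNγ minus untreated, among the 11551 regions found in all 8 lists. The CD274 promoter (red line) lies at 25.4 points and the region upstream of ICAM1 (blue line) at -1.97, beside a median of -1.34.

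By genotype, the size and sign of the difference at the CD274 promoter depended on the measure, and none could pass the test with 2 clones against 2. The mean percentile was 82.6 ± 1.39 in the KO and 79.5 ± 5.70 in the WT clones (SD, n = 2 clones each), a difference of 3.10 within the spread (exact permutation p = 0.667, where the smallest possible is 0.333). In rank the KO clones lay at 70.2 ± 0.585 and the WT clones at 56.3 ± 0.0964 (SD, n = 2 each), a difference of 13.9 that was larger than the spread between clones, at that smallest exact permutation p of 0.333. By the percentile of fold the KO clones were higher by 11.4, also at an exact permutation p of 0.333. The pileup over library background had the opposite sign, with a KO minus WT difference of -7.23 (exact permutation p = 1).

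The CD274 peak was also wider with IFNγ, mainly on the upstream side. Counted in bp from the first TSS, its upstream edge lay at -179 and -177 in the WT libraries, at -222 and -185 in the KO, at -245 and -246 in the WT_IFNγ and at -258 in both KO_IFNγ libraries. The groups did not overlap (exact permutation p = 0.0286), and the mean shifted by -61 bp. The downstream edge lay farther out with IFNγ in each clone, by 23 bp in WT_4, 3 bp in WT_5, 19 bp in KO_C5 and 67 bp in KO_D2. Its positions overlapped between treatments (exact permutation p = 0.2). The width was 366 ± 30.6 bp without and 455 ± 32.1 bp with IFNγ (SD, n = 4 each). An edge farther out in every IFNγ library was found at 3.82% of the regions in all 8 lists. The summit changed position by -2 bp in WT_4, -18 bp in WT_5, -23 bp in KO_C5 and -16 bp in KO_D2, upstream in each. A summit that moved the same way in all 4 clones was found at 15.9% of the regions, and the positions overlapped between treatments (exact permutation p = 0.0857). The overlapping ISRE cores and the GAS match shown above lay inside the peak in all 8 lists, upstream of the summits. Edges depend on peak height, which also differed, and the part of height in the width was not tested.

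**Figure D3:**
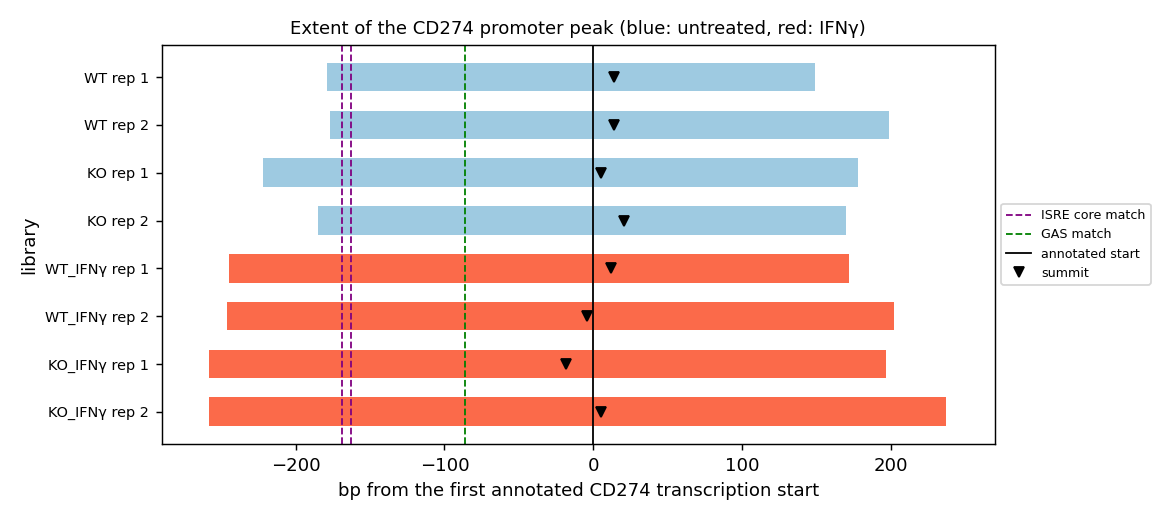
Extent of the CD274 promoter peak in each library (bars, untreated blue and IFNγ red) and its summit (triangles), in bp from the first annotated TSS, with dashed lines at the starts of the ISRE core and GAS matches. The upstream edge lies at -222 to -177 in the untreated and at -258 to -245 in the IFNγ libraries.

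The 3 protein-coding genes whose promoter percentiles over the 8 libraries were most like those of CD274 were TMEM179B, NANP and TINF2, the last of which encodes the shelterin protein TIN2. Their root mean square differences from CD274 were 5.14, 5.15 and 5.36 percentile points. Over all genes with a promoter peak in all 8 lists, 0.891% had a higher percentile in every IFNγ than in every untreated library. TMEM179B, NANP and TINF2 lay above CD274 in WT replicate 1, at 77.3, 72.0 and 74.6 against 66.6. They lay below it in WT_IFNγ replicate 1, at 80.8, 78.9 and 76.0 against 84.3. Like CD274, all 3 were higher with IFNγ in each clone, though their treatments overlapped. TMEM179B lay at 73.9 to 82.7 without and 80.8 to 91.1 with IFNγ, NANP at 72.0 to 87.2 and 78.9 to 91.7. TINF2 lay at 72.6 to 77.7 and 76.0 to 88.1. They were picked for likeness to CD274, so a shared direction follows in part from the choice.

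ICAM1, the endothelial and epithelial ligand of LFA-1, had no peak within 500 bp of any of its TSSs, but a region 1308 bp upstream of the gene had a peak in all 8 lists. It spanned chr19:10269473-10269785, in an intron of the long non-coding RNA gene LIMASI. Its percentile was 51.4 and 54.7 in the WT, 55.5 and 35.6 in the KO, 43.1 and 68.2 in the WT_IFNγ and 65.9 and 26.0 in the KO_IFNγ libraries. The IFNγ libraries thus lay both above and below the untreated ones. The mean was 49.3 ± 9.33 without and 50.8 ± 20.1 with IFNγ (SD, n = 4 each), a difference of 1.52 (exact permutation p = 0.857). Within clones the change was -8.29 points in WT_4, 13.6 in WT_5, 10.4 in KO_C5 and -9.57 in KO_D2, so that each genotype held a clone of each direction. The mean fold was 14.1 ± 2.75 without and 15.0 ± 6.75 with IFNγ (SD, n = 4 each), a difference of 0.914 that was smaller than either SD. By genotype the percentile differed by -8.61, KO minus WT (exact permutation p = 0.667).

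**Figure D4:**
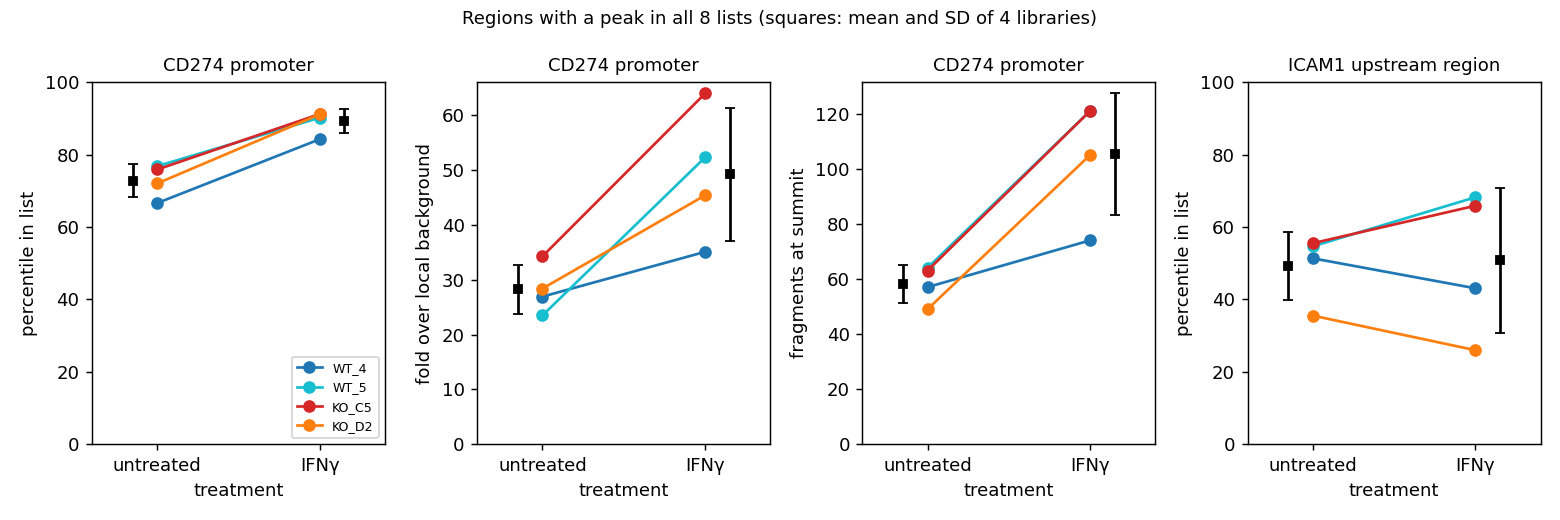
Percentile, fold and solved fragments at the summit of the CD274 promoter peak, and percentile of the region upstream of ICAM1, untreated and with IFNγ, with a line for each clone and squares for the mean ± SD of 4 libraries. All 4 lines go up at CD274, where the mean percentile was 72.9 and 89.3, while at ICAM1 2 go up and 2 go down.

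The other 2 regions around ICAM1 had a peak in WT replicate 2 only, with a fold of 3.95 and 4.94 and a percentile of 2.90 and 10.5. Both lay in coding exons of the neighbouring gene ICAM5, an adhesion molecule of neurons, 5849 and 8997 bp from ICAM1.

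The chemokine cluster was nearly empty. The CXCL10 promoter, for the chemokine IP-10, had a peak in WT_IFNγ replicate 1 only, with a fold of 3.54, a −log10 p of 4.28 and 7 fragments at the summit. With a percentile of 0.634 it was among the weakest peaks of that list, and its −log10 q of 1.78 did not reach 3. The summit lay within the printed sequence, between the NF-kB match at -122 and the hexamer. CXCL9, which encodes MIG, and CXCL11, which encodes I-TAC, had no promoter peak in any list. The CXCL10 promoter region also lay within 10 kb of CXCL11, which had no other region.

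Within 10 kb of CXCL9 there were 3 distal regions. The one found in 5 lists (chr4:75990674-75991581) covered the TSS of the neighbouring gene SDAD1, 9694 bp from CXCL9, so it is as much a promoter of that gene. It had a peak in WT replicate 2 and in all 4 IFNγ libraries. The percentiles were 73.1 in WT replicate 2, 18.7 and 69.6 in WT_IFNγ and 55.5 and 41.3 in KO_IFNγ. The highest value was thus an untreated one. Unlike the others, the peak of WT_IFNγ replicate 1 (chr4:75991273-75991563) did not reach the SDAD1 TSS. Its summit lay at 75991406, against 75990986 to 75991015 in the others, and it joined the region by overlap with their peaks. Presence in 4 of 4 IFNγ against 1 of 4 untreated libraries had an exact permutation p of 0.143 (adjusted p = 1 over 52105 regions), and 67 of all regions were under 0.05 unadjusted and 0 after adjustment. With the clone as a replicate block the exact p was 0.25. Without WT replicate 2 the difference in presence was 1, with an exact permutation p of 0.0286. That outcome is fixed by leaving out the only untreated library with this peak, so it adds no support. By genotype it had a peak in 3 of 4 WT and 2 of 4 KO libraries (exact permutation p = 1).

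The other 2 were found in 1 list each. One, 4127 bp from CXCL9 and in an intron of ART3, had a peak in WT_IFNγ replicate 2 with a fold of 5.34 and a percentile of 17.4, and lay within 10 kb of CXCL10 as well. The other, in an exon of SDAD1-AS1, had a peak in KO_IFNγ replicate 1 with a fold of 4.21 and a percentile of 2.57.

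IDO1, which encodes indoleamine 2,3-dioxygenase, had peaks in IFNγ libraries only, and each in a single one. Of its 2 promoter regions, the one over an annotated TSS and exon had a fold of 5.55, a percentile of 12.7 and 8 fragments at the summit. The other lay 315 bp from a TSS of another annotated transcript and had a fold of 4.99 and a percentile of 8.91. Both were in WT_IFNγ replicate 1, the library that also held the CXCL10 peak. A further, intronic region had a peak in KO_IFNγ replicate 1 with a fold of 3.90 and a percentile of 2.39. In WT_IFNγ replicate 1, 35 genes (0.175% of all protein-coding genes) had a promoter peak that no other list had, against 3 to 298 genes in the other libraries. With lists cut to equal length, the IDO1 region over the TSS kept its peak and the CXCL10 promoter and the other IDO1 regions had none.

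PDCD1LG2, the gene of the second PD-1 ligand, had no promoter peak. A region 9478 bp upstream of it had a peak in WT_IFNγ replicate 2 (fold 4.00, percentile 5.69) and in KO_IFNγ replicate 1 (fold 5.61, percentile 10.1). Presence in 2 of 4 IFNγ and 0 of 4 untreated libraries had an exact permutation p of 0.429, and 0.5 with the clone as a replicate block, and with lists cut to equal length the region had a peak in 0 lists. An intronic region had a peak in WT replicate 2 only, with a fold of 4.94 and a percentile of 10.5. Its neighbour CD274, in the same libraries, had the strongest peak of the 7 genes in every one of them.

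Distal peaks at the 7 genes numbered 1 and 5 in the WT libraries, 1 and 1 in the KO, 2 and 4 in the WT_IFNγ and 5 and 2 in the KO_IFNγ libraries. WT replicate 2 therefore held as many as the highest IFNγ library. The mean was 2 ± 2 without and 3.25 ± 1.5 with IFNγ (SD, n = 4 each), a difference of 1.25 within the spread. It was 2.25 without WT replicate 2, 0.667 without KO_IFNγ replicate 1, 0.5 with lists of equal length, 0.75 by summits, 0.25 within 5 kb and 2 within 50 kb. By genotype it was 2.25 ± 1.06 in the KO and 3 ± 2.12 in the WT clones (SD, n = 2 each). A distal region found in IFNγ lists only was present at 5 of the 7 genes when the CXCL10 promoter region counts as distal for CXCL11, against 35.4% of all genes, and the regions of CXCL9, CXCL10 and CXCL11 were partly the same.

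A wider list of 30 chemokine, cytokine, complement, adhesion, checkpoint and tryptophan pathway genes was then described by the same rule. This list too was chosen with earlier results of these data known. Its shares beside those of all genes are therefore a description and not a test. A promoter peak was found at 16 of the 30 genes and at 14 in no list, and 5 had one in all 8 lists. Of all 19962 genes, 14424 had one in at least 1 list, 27.7% in none and 51.2% in all 8. At 11 listed genes, or 36.7%, there was one in more IFNγ than untreated libraries, against 11.7% of all genes. At 0 listed genes there was one in fewer, against 1015 of all 19962 genes. At 7 genes, or 23.3%, the difference was at least 2 libraries, against 3.45% of all genes, and at 0 genes it was at least 2 in the other direction, against 0.656%. The number of listed genes with a promoter peak was 11, 9, 6 and 7 in the untreated and 13, 15, 12 and 14 in the IFNγ libraries. With lists cut to equal length 4 genes differed by at least 2 libraries, CX3CL1 and SERPING1 of these 7 together with IL15 and IL15RA, and the other 5 of the 7 no longer did. The share of all genes was not computed for lists of equal length, so these 4 genes cannot be set against 3.45%. Without WT_IFNγ replicate 1, WT_IFNγ replicate 2, KO_IFNγ replicate 1 or KO_IFNγ replicate 2 there were 3, 4, 4 and 3, since 3 IFNγ libraries then stood against 4.

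The 7 genes were CXCL16 and CX3CL1, both membrane-bound chemokines, C1S, a complement protease, SERPING1, the C1 inhibitor, FAS, a death receptor, TNFRSF14, a checkpoint receptor, and BST2, which tethers virus particles. With lists of equal length C1S and BST2 had no peak in any library, CXCL16 had one in 2 untreated and 2 IFNγ libraries, FAS in 1 and 2, and TNFRSF14 in 0 and 1. CX3CL1 had a peak in 2 untreated libraries, both WT, at percentiles of 31.9 and 41.6, and in all 4 IFNγ libraries at 41.4, 71.9, 69.0 and 70.8. FAS had one in the same 6 libraries, at 29.0 and 32.2 without and at 44.6, 60.4, 12.3 and 30.4 with IFNγ. SERPING1 had one in WT replicate 1 at 29.3 and in all 4 IFNγ libraries at 33.2 to 59.8. TNFRSF14 had one in 3 IFNγ libraries at 7.30, 42.5 and 36.2, and BST2 likewise in 3 at 9.36, 11.5 and 26.7, with none in the untreated libraries. CXCL16 had one in 2 untreated libraries and C1S in none, against 4 and 2 IFNγ libraries.

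By genotype, 2 of the 30 genes, CX3CL1 and FAS, had a promoter peak in at least 2 more WT than KO libraries. Among all genes 4.27% did, so this count is near that share. The reverse was found at 0 genes of the list and at 0.536% of all genes. CX3CL1 and FAS lacked a peak in the untreated KO libraries and had one in both KO_IFNγ libraries. The untreated KO lists were shorter, at 19255 and 16730 peaks, than the untreated WT lists, at 21715 and 29567. With lists of equal length each of the 2 genes had a peak in 1 untreated library. The part of list length in the difference was not tested. The difference was not testable below a p of 0.333 with 2 clones of each genotype.

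Of the 5 wider-list genes with a peak in all 8 lists, IL15RA, which presents the cytokine IL-15, was named after its values were seen. Its percentile was 31.0, 0.188, 12.7 and 10.3 in the untreated and 74.4, 71.3, 65.1 and 66.6 in the IFNγ libraries, with the groups far apart. The mean was 13.6 ± 12.8 without and 69.3 ± 4.27 with IFNγ (SD, n = 4 each), a difference of 55.8 (exact permutation p = 0.0286, adjusted p = 1), the largest of the 10214 genes with a promoter peak in all 8 lists. As IL15RA was picked on these values, its p is a description and not a test. The peak of WT replicate 2, at a fold of 3.14, was near the calling limit. With lists of equal length 2 untreated and 4 IFNγ libraries kept a peak. WARS1, a tryptophanyl-tRNA synthetase, lay between 91.0 and 95.1 in all 8 libraries. CD40, CD47 and CD276 had values with and without IFNγ that overlapped.

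**Figure D5:**
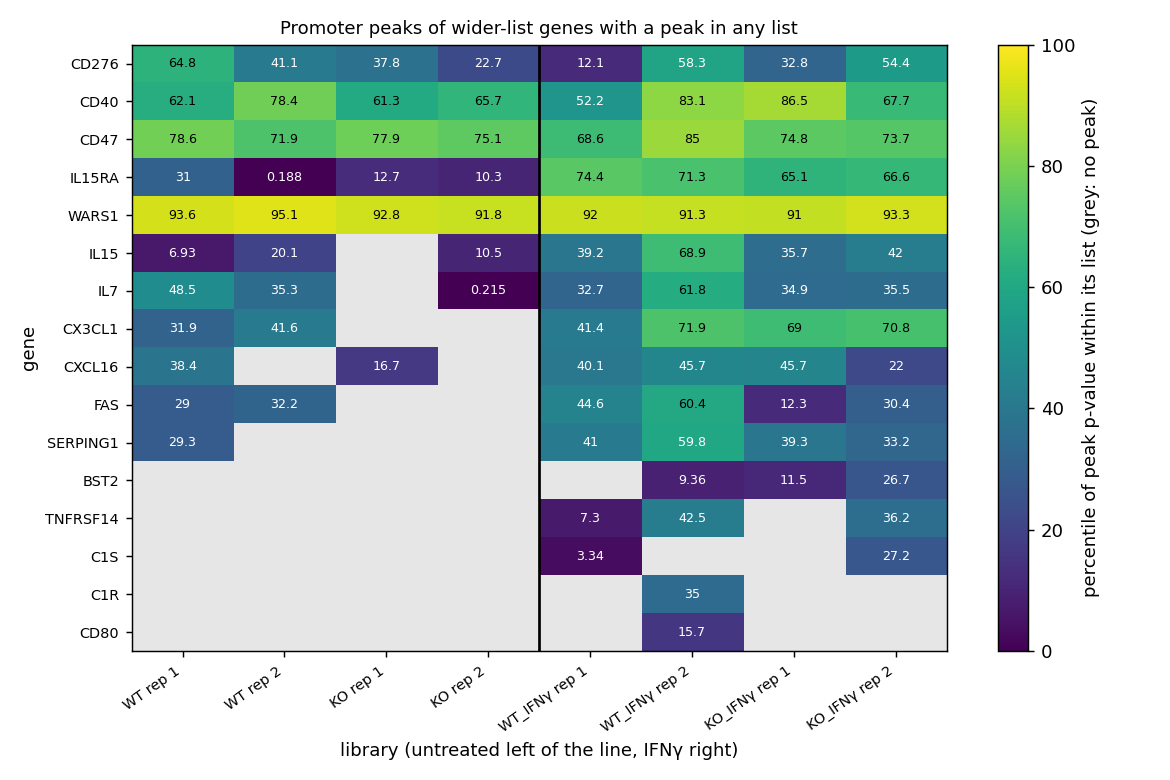
Within-list percentile of the promoter peak (colour and number, 0 to 100) for the 16 wider-list genes with a peak in at least 1 library, with grey where the list had none. IL15RA goes from 0.188 to 31.0 in the untreated to 65.1 to 74.4 in the IFNγ libraries, and C1R and CD80 are filled in 1 library each.

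Of the 4 genes for the receptors that meet these ligands on leukocytes, CXCR3, the receptor of the 3 chemokines, had no promoter peak. PDCD1, for PD-1, and ITGAL, for the alpha chain of LFA-1, had one in 1 list each, at a percentile of 0.963 in WT_IFNγ replicate 2 and 19.5 in WT replicate 1. ITGB2, for the beta chain, had one in 2 untreated and 2 IFNγ libraries.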

How the data were processed

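FAIRE-seq was performed on U2OS clones (2 WT, 2 ZBTB48 KO), each without and with IFNγ, and 8 peak lists, 1 per library, were analysed. Per the labels and the study's methods, the authors trimmed reads with Trimmomatic, aligned them to GRCh38 with Bowtie2 2.2.5, filtered them with SAMtools 1.14 and called peaks per library with MACS2 2.2.7.1. The deposited columns used were the fold enrichment over local background (a ratio) and −log10 p and −log10 q of the caller. The deposited score was not used. Whether input DNA served as control is not given in the sources used here. No columns of unknown samples were present.

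Peaks on chromosomes 1 to 22 and X that shared at least 1 bp were merged to regions. Summit pileup and local background were solved from fold and −log10 p with the Poisson test that the caller uses. The library background was the lowest local background shared by at least 20 peaks (0.621 to 1.079 fragments). It stands in for depth, as the study gives read totals only as a range over its FAIRE-seq samples. Treatment was tested by two-sided exact permutation over 70 assignments of libraries, genotype over 6 assignments of clone means, and the replicate block over 16 sign changes of clone differences, with Benjamini-Hochberg adjustment over all regions. Same-numbered libraries of a genotype are the same clone per the labels, so the numbers pair them. Each clone stands for its genotype, and p-values cover the spread between these libraries. The code was tested on simulated lists. There, regions with strong gains moved the ranks of the others, and percentile differences are therefore relative to the list. NF-kB was searched by its consensus.

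The genes named were all 7 members, wider-list genes whose promoter peaks differed by at least 2 libraries between treatments or genotypes, and the 3 genes most like each member with a promoter peak in at least 2 lists. Regions with a peak in at least 2 lists were named singly. The result for 1 further leukocyte marker is not reported here. The members and lists were chosen with earlier results of these data known. Alternatives were stricter lists, lists of equal length, other windows and overlaps, other ranks and each library left out. Python 3.11.15, numpy 2.4.6, pandas 2.3.3, scipy 1.17.1 and matplotlib 3.10.9 were used.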

Additional observations from a re-analysis of the deposited data

Results flagged for a closer look

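The number of the 7 genes with a promoter peak was 3 in WT_IFNγ replicate 1 and 1 in each of the other libraries of both the IFNγ and the WT group, which sets it apart from the 3 others in both groups. Its additional genes were CXCL10 and IDO1, with percentiles of 0.634 to 12.7.

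The number of distal peaks at the 7 genes was 5 in WT replicate 2 and 1 in each of the other untreated libraries. Of its 5 peaks, 3 were found in no other list and 1 was the region over the SDAD1 start site.

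The percentile at the CD274 promoter was 84.3 in WT_IFNγ replicate 1, the lowest of the IFNγ libraries, against 90.2, 91.2 and 91.3. It was still above the highest untreated value of 76.8. Of 24 groups of 4 libraries looked at, 4 stood out in this way. The cutoff's rate of about 1 in 20 is for continuous values, whereas the peak counts are small whole numbers with ties. Groups of 4 equal counts, such as the promoter counts of the untreated libraries, could not stand out. The number that stood out was therefore not set against chance. The groups share libraries.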

How the results depend on the processing

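The CD274 difference with IFNγ kept its sign under each alternative run. It ranged from 14.3 to 18.0 percentile points without each library in turn, all at an exact p of 0.0286. It was 15.1 by the percentile of fold (exact permutation p = 0.0571) and 16.4 with the clone as a replicate block (exact p = 0.125), where 4 clones cannot reach 0.05. The same loss by design applies to every other difference at an exact p of 0.0286. An example is the CD274 rank (exact p = 0.125 with the replicate block). No region test could pass with the block, whatever its values. The genotype difference at CD274 was -7.23 by pileup over library background and -1.68 to 7.88 without each library. At the region upstream of ICAM1 the IFNγ difference was -1.97 by rank and -4.29 to 9.8 without each library, and the genotype difference was 4.81 by rank and 2.55 by pileup. With lists of equal length this region was lost from 1 IFNγ KO library, so presence differed by -0.25 in both contrasts. Distal peaks, KO minus WT, differed by -3 within 50 kb and by -1.75 to 0.25 without each library. Presence of the region that covers the SDAD1 start site differed by 0.667 to 1 between treatments without each library. At the region upstream of PDCD1LG2 it differed by -0.25 to 0.25 between genotypes without each library. There it was 0.25 at −log10 q of at least 3. The wider-list count of 7 was 4 with lists of equal length and 3 to 9 without each library, an alternative chosen after seeing the data. Causes were not tested. Peak lists give no value below the calling limit of 5 or 6 fragments, so absence means not called at this depth.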
